A study of Mus musculus with 3 samples.

Results

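The 8 genes described here, Retnlg, Pglyrp1, Hdc, G0s2, Stfa2l1, Gm5483, Acod1 and Hcar2, were followed as rows of 3 single-cell count tables, 8 of 14148 genes measured. They were chosen because earlier work on these same tables had shown them to be high in, or uneven among, the neutrophils, so their levels are given as a description and no test was run on them. CD45+ immune cells had been sorted from the muscularis externa of the small intestine of wild-type C57BL/6J mice aged 12 weeks. One library came from naive mice, which is day 0 in the labels, and the others from mice taken 24 h (day 1) and 72 h (day 3) after intestinal manipulation, a surgical handling of the gut that inflames its muscle layer. The tables held 652 naive cells, 2211 cells at 24 h and 1239 cells at 72 h, with 1865221, 10542346 and 5246731 unique molecular identifiers (UMIs, one per captured mRNA molecule). Each library was a pool of mice, so there was 1 sample per time point, and a time point and its library cannot be told apart.

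Neutrophils are short-lived granulocytes that leave the blood for inflamed tissue, carry ready-made antimicrobial proteins in granules and switch on cytokine and metabolic genes once in tissue. Among the 8 genes, Retnlg encodes the secreted protein resistin-like gamma and Pglyrp1 a granule protein that binds bacterial peptidoglycan. Hdc makes histamine from histidine, and G0s2 inhibits adipose triglyceride lipase, the first enzyme of fat breakdown. Stfa2l1 and Gm5483 belong to the stefin A family, small inhibitors of cysteine proteases such as cathepsins. Acod1 makes itaconate from cis-aconitate in myeloid cells exposed to microbial signals, and Hcar2 is the receptor for niacin and the ketone body beta-hydroxybutyrate.

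The members do not share one locus, apart from the stefins. In the GENCODE M21 annotation of GRCm38, G0s2 lies at chr1:193272161-193273217 on the minus strand, inside Lamb3 on the opposite strand, Hdc at chr2:126593667-126619299 on the minus strand and Hcar2 at chr5:123863570-123865499 on the minus strand. Pglyrp1 lies at chr7:18871331-18890459 and Acod1 at chr14:103046977-103056573, both on the plus strand. Chromosome 16 holds the other members on its plus strand, with Stfa2l1 at chr16:36156811-36161953, Gm5483 at chr16:36184212-36188111 and Retnlg at chr16:48872621-48874496. Stfa2l1 and Gm5483 are 22.3 kb apart within a run of 10 stefin A genes that spans 335.4 kb, in the order Csta1, Stfa2l1, Gm5483, Gm5416, Stfa1, Gm4758, BC117090, BC100530, Stfa2 and Stfa3. The longest stretch of identical transcript sequence was 97 bases between Stfa2l1 and Stfa2 and 34 bases between Stfa2l1 and Gm5483, so reads could be divided between Stfa2l1 and Stfa2 and their values are uncertain in that respect.

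Promoter sequences are shown for stefins that were higher at 72 h than at 24 h and, beside them, for Retnlg and Acod1, which were not higher by the same rule. Each runs 5′ to 3′ on the gene's own strand from 250 bases before to 50 bases after the annotated start, taken from RefSeq on GRCm38.p6, and capitals mark matches to 6 motifs searched on both strands. The letters TTGCNNAA stood for C/EBP sites and the letters GAGGAA for ETS factors such as PU.1. The letters TGANTCA stood for the site of the AP-1 dimers. The letters TATAAA stood for the TATA box, and NF-kB and interferon response motifs were the other two. No shown match overlapped another.
Retnlg, chr16:48872358-48872657, plus strand: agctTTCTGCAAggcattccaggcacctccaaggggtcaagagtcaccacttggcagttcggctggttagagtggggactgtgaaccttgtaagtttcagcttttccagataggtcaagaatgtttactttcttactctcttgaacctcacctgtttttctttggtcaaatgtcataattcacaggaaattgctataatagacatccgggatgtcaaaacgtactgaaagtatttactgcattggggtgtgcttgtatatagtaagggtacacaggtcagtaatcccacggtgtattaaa
Stfa2l1, chr16:36156561-36156860, plus strand: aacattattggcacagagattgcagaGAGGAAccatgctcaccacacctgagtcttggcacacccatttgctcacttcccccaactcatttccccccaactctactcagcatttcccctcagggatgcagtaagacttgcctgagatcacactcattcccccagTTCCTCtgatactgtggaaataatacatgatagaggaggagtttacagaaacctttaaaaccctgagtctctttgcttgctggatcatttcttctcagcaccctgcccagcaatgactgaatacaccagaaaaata
Stfa2, chr16:36408314-36408613, minus strand: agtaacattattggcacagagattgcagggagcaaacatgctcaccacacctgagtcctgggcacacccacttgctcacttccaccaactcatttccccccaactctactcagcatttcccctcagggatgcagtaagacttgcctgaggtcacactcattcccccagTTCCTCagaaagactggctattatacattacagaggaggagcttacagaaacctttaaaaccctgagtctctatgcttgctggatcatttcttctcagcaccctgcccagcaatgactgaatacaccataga
Stfa1, chr16:36276898-36277197, plus strand: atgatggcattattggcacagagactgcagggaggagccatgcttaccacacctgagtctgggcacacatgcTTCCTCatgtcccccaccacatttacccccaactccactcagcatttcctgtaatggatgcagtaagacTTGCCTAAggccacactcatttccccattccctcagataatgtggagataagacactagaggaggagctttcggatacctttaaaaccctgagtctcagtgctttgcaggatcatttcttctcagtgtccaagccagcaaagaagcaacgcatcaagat
Acod1, chr14:103046762-103047061, plus strand: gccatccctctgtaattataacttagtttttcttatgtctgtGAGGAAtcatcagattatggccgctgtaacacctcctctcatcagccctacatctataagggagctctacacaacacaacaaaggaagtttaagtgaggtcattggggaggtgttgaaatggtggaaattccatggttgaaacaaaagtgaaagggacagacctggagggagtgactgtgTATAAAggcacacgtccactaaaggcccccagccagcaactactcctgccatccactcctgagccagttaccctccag

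The Stfa2l1 and Stfa2 windows were identical in 275 of 304 aligned columns, 90.5%, and each held GAGGAA near the start, at -86 in Stfa2l1 and -82 in Stfa2, with a further copy at -224 in Stfa2l1. Stfa1 held GAGGAA at -178 and the C/EBP letters at -109, and Acod1 held GAGGAA at -208 and a TATA box at -28. The Retnlg window held the C/EBP letters at -246 and no match to the other 5 motifs. The Pglyrp1 window, not printed, held GAGGAA at -113 and -62 and the NF-kB letters at -93, while those of Hdc and G0s2 held none of the 6. Of 32851 mouse promoters of this length, 28.3% held GAGGAA, 10.8% the C/EBP letters, 13.6% the TATA box and 1.63% the NF-kB letters, so a match to GAGGAA or TATAAA is common. Hcar2 and Gm5483 had no entry in the promoter table.

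Cells were grouped by clustering on other genes, since the 8 members and the genes listed with them were left out of the genes that drove the clusters. A group of 519 cells carried the neutrophil program and is called neutrophil-like, with 11 cells in the naive library, 402 at 24 h and 106 at 72 h. It joined a cluster of 459 cells led by Retnlg, S100a9 and Cxcr2, called the Retnlg cluster, in which 10 of 11 neutrophil markers passed, and a cluster of 60 cells led by Acod1, Il1f9 and Asprv1, called the Acod1 cluster, in which 9 passed. A further cluster of 258 cells, with 16, 36 and 206 cells in the naive, 24 h and 72 h libraries, was led by Ptgs2, Gm12840 and Siglecf. It also passed 9 of the 11 neutrophil markers and 1 of 5 measured eosinophil markers, and the eosinophil genes Prg2 and Alox15 had 0 UMIs in it at both times, as did Ccr3 at 72 h. It is therefore called the Siglecf-Ptgs2 cluster and kept apart, without a cell type name. S100a8, a calprotectin subunit that fills neutrophil cytosol, stood at 37235 and 59441 CPM (UMIs of the gene per 1000000 UMIs of the group) in neutrophil-like cells at 24 h and 72 h, at 13875 and 18441 CPM in the Siglecf-Ptgs2 cluster, and at 613 and 384 CPM in all other cells. These 777 granulocytes had a median of 932 UMIs per cell, against 4761 in the 3325 other cells, so a gene is missed more often in a granulocyte than in another cell at the same CPM. Other clusters were named from their markers in the same way as monocyte/macrophage-like, DC-like, T cell-like (with NK and ILC clusters) and B cell-like, and are called T cells, B cells and dendritic cells (DCs) below.

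Levels below are CPM of a group's summed UMIs, and brackets hold the 95% interval, exact under Poisson counting. For shares of cells the 95% interval is that of Clopper and Pearson. Both cover counting error only and not the spread between mice. The Poisson intervals also leave out the uneven spread of UMIs over cells, so they are too narrow where few cells hold most UMIs of a gene. No comparison uses a group of under 20 cells in a library.

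Most UMIs of the 8 genes in the 24 h library came from neutrophil-like cells, which were 18.2% of its cells. They held 86.3% of the library's Gm5483 UMIs, 84.8% of Retnlg, 82.4% of Stfa2l1, 75.3% of G0s2, 72.4% of Hcar2, 71.1% of Hdc, 71.1% of Pglyrp1 and 67.5% of Acod1. At 72 h the neutrophil-like cells were 8.56% of the library and the picture split. They still held 92.9% of Stfa2l1, 88.6% of Gm5483 and 85.3% of Retnlg UMIs, but 36.4% of Hdc and 39.7% of G0s2, and the Siglecf-Ptgs2 cluster held 50% of the library's Hdc UMIs and 44.4% of its G0s2 UMIs.

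**Figure D1:**
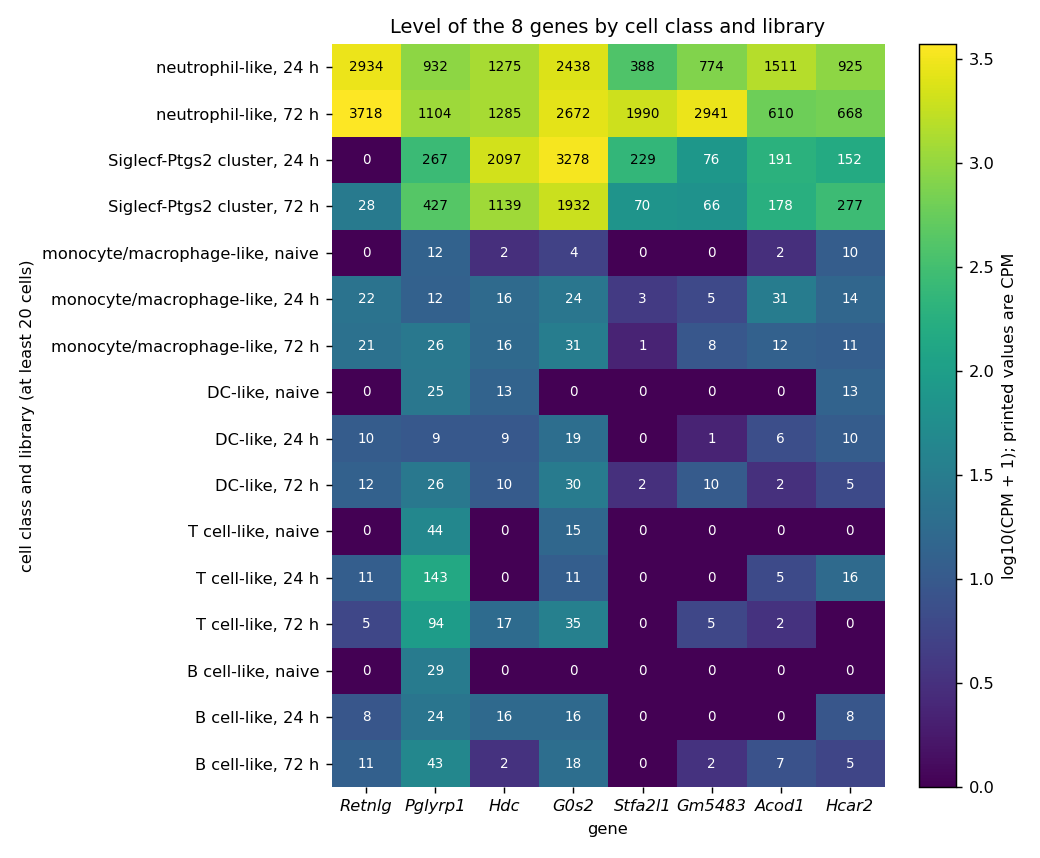
Heat map of the level of each of the 8 genes (columns) in each cell class and library with at least 20 cells (rows), as CPM of summed UMIs with printed CPM on a colour scale of log10(CPM + 1). The neutrophil-like rows are high for every gene, the Siglecf-Ptgs2 rows are high for Hdc and G0s2 and low for Retnlg (28.1 CPM at 72 h), and the other classes are low, with Pglyrp1 in T cells at 24 h at 143 CPM.

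Against the 1543 monocyte/macrophage-like cells at 24 h, all 8 members were at least 2-fold higher in neutrophil-like cells, where 25.1% of 1742 genes tested were. A gene was tested where it had at least 100 CPM in one of the groups and at least 10 UMIs in all, and a fold was counted on the CPM + 10 scale. All 8 members were below 100 CPM in the monocyte/macrophage-like cells. They therefore passed only through the neutrophil-like cells, in which they were known to be high, and their count is no support. Retnlg stood at 2934 CPM [2769–3107] against 22.1 CPM, a ratio of 133 (95% interval 114–155). The ratio was 151 for Gm5483, 129 for Stfa2l1, 102 for G0s2, 80.2 for Hdc, 78.4 for Pglyrp1 and 66.5 for Hcar2. Acod1 had the lowest ratio, 48.7 (42.2–56.3), at 1511 CPM [1393–1636] against 31.0 CPM. The intervals of Acod1 and Retnlg did not overlap, but they leave out the uneven spread of UMIs over cells.

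Acod1 and Retnlg UMIs were also distributed differently over the monocyte/macrophage-like cells of that library. There were 279 Acod1 UMIs and 199 Retnlg UMIs, or 1.40 Acod1 UMIs for each Retnlg UMI, against 0.515 in the neutrophil-like cells. At least 3 Acod1 UMIs were seen in 22 of these cells, with up to 16 in one cell, and at least 3 Retnlg UMIs in 4 cells, with up to 28 in one. By cluster, Acod1 stood at 48.1 CPM in the macrophage-like cells led by Arg1, at 43.1 CPM in those led by Cxcl10 and Ly6c2, at 19.2 CPM in those led by Gm9733 and at 16.8 CPM in those led by Fabp5. B cells, which are not known to use Retnlg or Acod1, were set beside them. Of the 38 B cells at 24 h, 1 cell (2.63%) had a Retnlg UMI and 0 had an Acod1 UMI, which allows up to 23.6 CPM. Their median was 1707 UMIs per cell, against 5935 in the monocyte/macrophage-like cells. Thinned to 500 UMIs, 1.30% of the monocyte/macrophage-like cells had Acod1 and 0.907% had Retnlg, and the part of free RNA in these counts was not tested. All members but Pglyrp1 had 0 UMIs in the 277 naive B cells, which allows up to 3.80 CPM. The naive library held 11 neutrophil-like cells, so these B cells are no background for free RNA at 24 h.

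Pglyrp1 was the member with the most signal in lymphocytes. In T cells it stood at 44.2 CPM [27.4–67.5] in the naive library, 143 CPM [94.4–208] at 24 h and 94.3 CPM [67.4–128] at 72 h, with 21, 27 and 40 UMIs. The make-up of these cells differed between libraries, since 130 of the 188 naive T cells lay in a cluster led by Gzma and Gzmb, against 6 cells at 24 h and 28 at 72 h. In the cluster led by Thy1 and Cxcr6 Pglyrp1 was at 77.2 CPM [39.9–135], 155 CPM [102–226] and 117 CPM [83.3–160], intervals that overlapped, so no order over time is read. These T cells include NK and ILC clusters. At clustering resolution 1.2, over all libraries, Pglyrp1 was at 180 CPM in cells led by Ncr1 and Klrb1c. It was at 88.5 CPM in cells led by Trac and at 23.5 CPM in those led by Gzma. The T cells at 24 h had 27 Pglyrp1 UMIs for 2 Retnlg UMIs, a ratio of 13.5, against 0.318 in neutrophil-like cells. B cells held Pglyrp1 at 29.1, 23.6 and 43.5 CPM in the naive, 24 h and 72 h libraries, the last 2 from 3 and 19 UMIs. In DCs it ranged from 8.67 CPM at 24 h to 25.7 CPM at 72 h.

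Within the neutrophil-like cells at 24 h, the 8 genes fell into broadly and narrowly detected ones. Hdc had a UMI in 231 of 402 cells (57.5%, 52.5–62.3), G0s2 in 194 (48.3%, 43.3–53.3) and Pglyrp1 in 176 (43.8%, 38.9–48.8). Hcar2 was seen in 143 cells (35.6%, 30.9–40.5), Acod1 in 137 (34.1%, 29.5–38.9) and Retnlg in 115 (28.6%, 24.2–33.3). Stfa2l1, in 63 cells (15.7%, 12.3–19.6), and Gm5483, in 61 (15.2%, 11.8–19.1), were the least widely detected. The intervals of neighbours in this order overlapped, apart from those of Retnlg and Stfa2l1. With every cell thinned to 500 UMIs the shares were 44.0% for Hdc, 39.3% for G0s2, 32.6% for Pglyrp1, 24.6% for Acod1, 24.1% for Retnlg, 24.1% for Hcar2, 11.9% for Stfa2l1 and 10.9% for Gm5483.

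The share of cells with a UMI hid how uneven some of the genes were. The 40 cells with most UMIs of a gene held 93.2% of the Gm5483 UMIs, 86.3% of Retnlg, 85.2% of Stfa2l1 and 80.9% of Acod1, against 65.0% of Hcar2, 56.5% of G0s2, 47.0% of Pglyrp1 and 40.5% of Hdc. One cell held 78 of the 1171 Retnlg UMIs, and without it the level was 2752 CPM. One cell held 69 of the 309 Gm5483 UMIs, and the level without it was 605 CPM in place of 774. One cell held 57 of the 603 Acod1 UMIs (1378 CPM without it) and one held 44 of the 369 Hcar2 UMIs (819 CPM without it, 925 with it). Hdc and Pglyrp1 had no more than 10 UMIs in any cell.

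**Figure D2:**
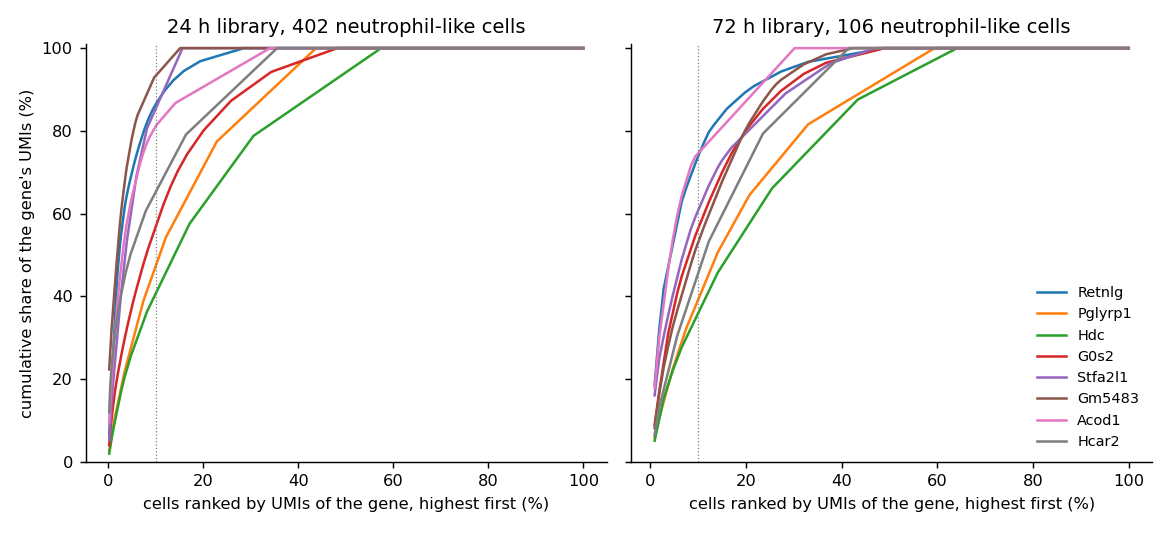
Cumulative share of each gene's UMIs (y axis, percent) against neutrophil-like cells ranked from most to fewest UMIs of that gene (x axis, percent of cells), 1 line per gene, for the 402 cells at 24 h and the 106 cells at 72 h, with a dotted line at 10% of the cells. At 24 h the lines for Gm5483, Retnlg, Stfa2l1 and Acod1 rise steeply, to between 80.9% and 93.2% in the top 40 cells, against 40.5% for Hdc, and at 72 h the line for Gm5483 is less steep, at 54.1% in the top 11 cells.

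The neutrophil-like group at 72 h had a different balance of the members. Stfa2l1 went from 388 CPM [329.6–455] at 24 h to 1989.6 CPM [1761–2239.7] at 72 h, a ratio of 5.12 (4.19–6.28), and Gm5483 went from 774 CPM [690.3–866] to 2941 CPM [2661–3242], a ratio of 3.80 (3.27–4.42). Acod1 went the other way, from 1511 CPM to 610.0 CPM [487–755], which is 2.48-fold lower (1.97–3.15). These 3 of the 8 genes passed a 2-fold difference, 2 higher and 1 lower, where 4.62% of 1451 genes were at least 2-fold higher and 8.13% at least 2-fold lower. Hcar2 was at 668 CPM [539–819] against 925 CPM [833–1024], a ratio of 0.723 (0.569–0.910). Retnlg was at 3718 CPM [3403–4054] against 2934 CPM, a ratio of 1.27 (1.14–1.41), which was not kept under other ways of choosing the cells: when cells under 500 genes or above 5% mitochondrial UMIs were dropped it was 0.979. Pglyrp1 (ratio 1.18, 0.974–1.43), G0s2 (1.10, 0.969–1.24) and Hdc (1.01, 0.844–1.2) differed by less than the counting error.

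The neutrophil-like group was also made up differently at the 2 times. When granulocytes were re-clustered, as described at the end, its cells at 24 h and 72 h numbered 142 and 23 in a sub-cluster with Ccl9 among its leading genes, 120 and 5 in one led by Ifit3b, 67 and 0 in one led by Gstm1, 47 and 17 in one led by Acod1, 5 and 7 in one with Ltc4s among its leading genes and 21 and 54 in one led by Gm9733. A change within cells and a change in this make-up cannot be told apart in the group as a whole. Only the Ccl9 and Gm9733 sub-clusters held at least 20 cells at both times. Stfa2l1 was higher at 72 h in both, with ratios of 6.05 (3.44–10.7) and 4.93 (2.33–12.5), and Gm5483 was 1.60 (0.819–2.94) and 6.58 (3.71–12.9) times its level at 24 h. Acod1 gave 0.377 (0.0995–1.01) and 0.772 (0.316–2.15), with 1 inside both intervals, and Retnlg gave 3.10 (1.98–4.77) in one and 0.653 (0.547–0.781) in the other.

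More cells held the stefins at 72 h. Stfa2l1 was found in 50 of 106 cells (47.2%, 37.4–57.1) and Gm5483 in 45 (42.5%, 32.9–52.4), and after thinning to 500 UMIs the shares were 34.0% and 36.8%, against 11.9% and 10.9% at 24 h. Acod1 was found in 32 cells (30.2%, 21.6–39.9), and thinned in 14.2% against 24.6%. Retnlg was found in 52 cells (49.1%, 39.2–59.0), and 1 cell held 95 of its 512 UMIs, without which the level was 3077 CPM. Within the Retnlg cluster alone the ratio of 72 h to 24 h was 4.91 for Stfa2l1, 6.02 for Gm5483, 1.70 for Retnlg, 1.36 (1.2–1.55) for G0s2, 1.21 (0.979–1.49) for Pglyrp1, 1.03 (0.857–1.24) for Hdc, 0.416 for Acod1 and 0.925 for Hcar2, so the directions of the stefins and of Acod1 held without the Acod1 cluster. The summed level of the 13 monocyte/macrophage markers, all with UMIs in both libraries, was 4159 CPM at 24 h and 3195 CPM at 72 h in these cells, and their median depth was 894.5 and 1244 UMIs. The part of either in the differences was not tested. Where neutrophils were instead taken as all cells with at least 1% of their UMIs from S100a8 and S100a9, a gate that also held 132 cells of the Siglecf-Ptgs2 cluster at 72 h and 21 at 24 h, the ratio was 2.53 for Stfa2l1, 1.73 for Gm5483, 0.284 for Acod1 and 0.597 for Retnlg, so the direction of Retnlg turned and the Gm5483 ratio fell below 2.

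**Figure D3:**
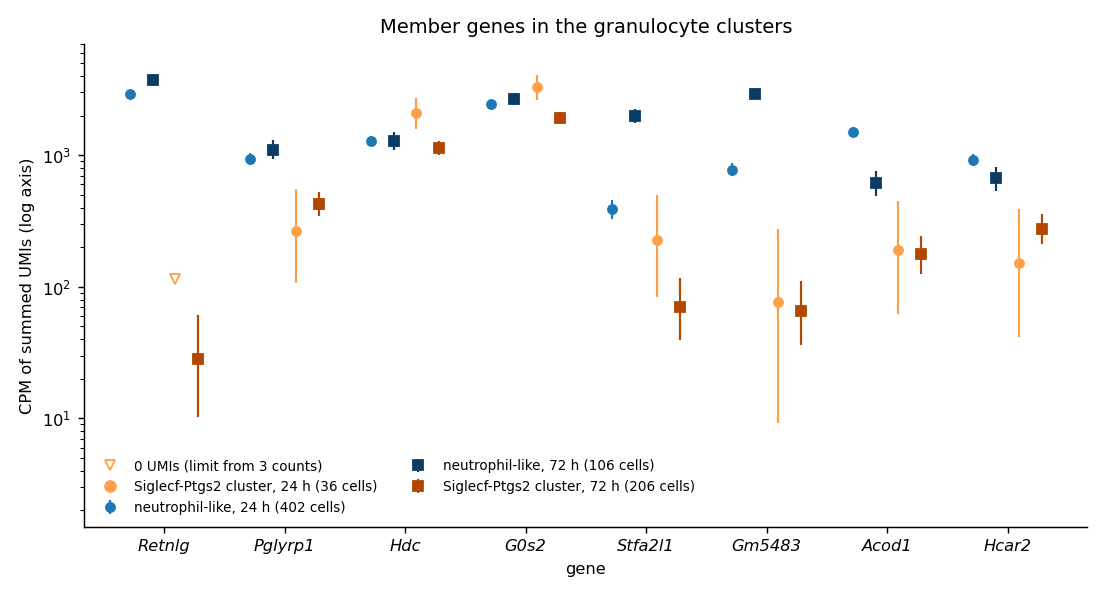
CPM of summed UMIs (y axis, logarithmic) of the 8 genes in neutrophil-like cells (402 at 24 h, 106 at 72 h) and in the Siglecf-Ptgs2 cluster (36 at 24 h, 206 at 72 h), with exact Poisson 95% intervals as bars and an open triangle for 0 UMIs at its limit of 114 CPM. Stfa2l1 and Gm5483 lie higher and Acod1 lower at 72 h than at 24 h in neutrophil-like cells, and Retnlg lies far lower in the Siglecf-Ptgs2 cluster, while Hdc lies between 1139 and 2097 CPM and G0s2 between 1932 and 3278 CPM in the 4 groups.

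Stefin A genes next to Stfa2l1 and Gm5483 were also higher at 72 h. Of 12 stefin genes listed, 8 were in the tables and 7 passed the filter in neutrophil-like cells, Stfa2l1 and Gm5483 among them, with a median log2 ratio of 2.33 over the 7 against 0.03 over all 1451 genes tested. Of the other 5, 4 were at least 2-fold higher at 72 h and 1, Cstb, was lower, where 4.62% of all genes tested were higher and 8.13% lower. Stfa1 was at 399 CPM against 10.0 CPM, a ratio of 39.8 (14.7–151) from 55 and 4 UMIs, and Gm5416 at 123 CPM against 20.05 CPM, a ratio of 6.16 (2.52–16.5). Stfa2, with 21 UMIs against 0, was at least 20.3-fold higher and BC100530, with 17 against 0, at least 16.4-fold higher, both counted against a floor of 3 UMIs over the group and both named after their values were seen. Stfa3 had 4 and 5 UMIs and did not pass the filter. Cstb, which encodes stefin B and lies outside the run on chromosome 16, was lower, at 1293 CPM against 3904 CPM (ratio 0.331, 0.282–0.387). Without the Gstm1 sub-cluster, which held much of the Cstb at 24 h, Cstb was at 1293 against 2213 CPM (0.584, 0.493–0.689) and no longer 2-fold lower, while the 4 others were still higher. Filters let a gene pass through the library where it is high, so these counts describe the libraries and are no test.

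Lists around the other members had fewer higher genes between 24 h and 72 h, and several of their lower genes depended on the Gstm1 sub-cluster. Over all 1451 genes tested 4.62% were higher and 8.13% lower, with a median log2 ratio of 0.03. At these shares a short list with 0 genes called shows little. Of the genes induced by NF-kB or lipopolysaccharide, which Acod1 is usually grouped with, 18 of 19 were measured and 16 passed, 0 higher and 5 lower, with a median log2 ratio of -0.31. Ccl3, a chemokine gene, was at 1155 CPM against 3676 CPM (0.314, 0.265–0.370) and Ccl4 at 2425 against 5109 CPM (0.475, 0.422–0.533). But Il1b, the interleukin-1 beta gene, was at 16694 against 11343 CPM (1.47, 1.40–1.55) and Cxcl2 at 11792 against 18404 CPM (0.641, 0.607–0.676). Of 9 genes of the itaconate and NRF2 group, 7 passed, 0 higher and 2 lower, Acod1 itself and Hmox1, the heme oxygenase that NRF2 induces (0.328, 0.164–0.597), while Slc7a11, a cystine transporter, was level at 1082 and 1140.1 CPM. Of the 7 genes around fat breakdown by the enzyme that G0s2 inhibits, 4 passed and 2 were lower, the lipid droplet protein Plin2 at 378 against 1080.0 CPM (0.350, 0.257–0.467) and Hilpda (0.439, 0.237–0.760). G0s2 was not among them. None of the 4 metabolite receptors that passed, Hcar2 included, and none of the 6 ageing and homing genes reached a 2-fold difference, with Cxcr2 at 719 against 521 CPM (1.38, 1.07–1.76). Of the 10 genes listed for Siglecf-positive neutrophils 4 passed, with Xbp1 higher (2.34, 1.71–3.17) and Csf1 (0.465, 0.282–0.733) and Cd63 (0.180, 0.128–0.246) lower. Without the Gstm1 sub-cluster, a setting chosen after the data were seen in which 4.37% of 1418 genes were higher and 6.7% lower, 2 of 15 NF-kB or lipopolysaccharide genes that passed were lower in place of 5 of 16, and Ccl4 was no longer among them (0.535, 0.474–0.603). Of the fat breakdown genes only Plin2 stayed lower (0.384, 0.281–0.516), Hilpda being at 0.592 (0.312–1.06). Ccl3 (0.385), Hmox1 (0.334) and Csf1 (0.478) stayed lower, and Cd63 did at 0.434 (0.305–0.606) in place of 0.180.

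Families of the single members gave little to compare against the same 4.62% of genes higher and 8.13% lower. Of the specific and gelatinase granule proteins, 8 of 10 were measured and 5 passed, 1 higher and 1 lower, with Lcn2, lipocalin 2, at 675 and 674 CPM and Chil3 at 14.5 against 223 CPM. Of the azurophil granule genes, which neutrophils transcribe in the bone marrow, Prtn3 and Elane were measured and neither passed. In the resistin family Retnlg alone passed, with 10 and 14 UMIs of Retn, and Pglyrp1 alone passed among the peptidoglycan recognition proteins, where Pglyrp2 had 0 UMIs in both libraries. Hdc alone passed among the histamine genes, with the histamine-degrading enzyme Hnmt at 87.1 and 90.2 CPM and the receptor gene Hrh2 at 14.5 and 25.1 CPM.

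Retnlg had the largest difference of the 8 members between the neutrophil-like cells and the Siglecf-Ptgs2 cluster at 72 h. At 72 h, 3 of 206 cells of the Siglecf-Ptgs2 cluster (1.46%, 0.301–4.20) held a total of 6 Retnlg UMIs, 28.1 CPM [10.3–61.2], which is 132-fold lower (60.3–362) than in neutrophil-like cells. At 24 h, 0 of its 36 cells held one. By the limit of 3 counts this allows a share of cells with a UMI of up to 8.33% and a level of up to 114 CPM, so Retnlg was at least 25.7-fold lower, and a cell without a UMI may still hold the transcript at this depth. Gm5483 was 44.8-fold lower (26.4–82.7) at 72 h and Stfa2l1 28.3-fold lower (16.9–51.2), from 14 and 15 UMIs in the Siglecf-Ptgs2 cluster. The median depth was 719 and 957.5 UMIs per cell in the Siglecf-Ptgs2 cluster at 24 h and 72 h, against 894.5 and 1244 in neutrophil-like cells.

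Acod1, Pglyrp1 and Hcar2 were lower by a few fold. At 72 h Acod1 was at 178 CPM [126–245] in the Siglecf-Ptgs2 cluster, 3.42-fold lower (2.31–5.16), Pglyrp1 at 427 CPM [344–524], 2.59-fold lower (1.98–3.39), and Hcar2 at 277 CPM [211–357], 2.41-fold lower (1.72–3.41). Hdc and G0s2 were close to level, Hdc at 1139 CPM [1001–1292] against 1285 CPM [1103–1489] (ratio 0.887, 0.727–1.08) and G0s2 at 1932 CPM [1749.7–2128] against 2672 CPM [2406–2959.6] (0.723, 0.627–0.834). Thus 6 of 8 members were at least 2-fold lower in the Siglecf-Ptgs2 cluster and 0 higher, where 13.6% of 1751 genes were at least 2-fold lower and 27.9% higher. At 24 h, 5 of the 8 were at least 2-fold lower and 0 higher, where 12.5% and 26.9% of 1799 genes were.

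Hdc also marks mast cells and basophils, so their markers were looked at beside it. All 6 measured markers had UMIs in the Siglecf-Ptgs2 cluster at 72 h, with a summed level of 220 CPM, but in 2 of its 206 cells, and 0 of the 6 had any at 24 h. Without those 2 cells Hdc was at 1139 CPM [999.7–1292] at 72 h.

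Hdc and G0s2 went slightly the other way at 24 h. In the 36 cells of the Siglecf-Ptgs2 cluster Hdc was at 2097 CPM [1579–2729], 1.64 times (1.22–2.17) the level in neutrophil-like cells, and G0s2 at 3278 CPM [2622–4049], 1.34 times (1.07–1.68). Within the Siglecf-Ptgs2 cluster, the ratio of 72 h to 24 h was 0.543 (0.404–0.742) for Hdc, 0.589 (0.466–0.752) for G0s2 and 0.308 (0.113–0.967) for Stfa2l1. Of the 6 members that passed the filter in that comparison, Stfa2l1 alone was at least 2-fold lower on the CPM + 10 scale and 0 were higher, where 14% of 1869 genes were lower and 15.6% higher. So Stfa2l1 was higher at 72 h in neutrophil-like cells and lower, from 6 UMIs in 4 cells at 24 h, in the Siglecf-Ptgs2 cluster.

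The companion lists were compared between the Siglecf-Ptgs2 cluster and neutrophil-like cells at 72 h in the same way, against the 13.6% of genes lower and 27.9% higher. Of the 5 stefin genes that passed beside Stfa2l1 and Gm5483, 4 were lower, and these, Stfa1, Stfa2, Gm5416 and BC100530, had 0 UMIs there and passed only through the neutrophil-like cells, so their count is no support. Stfa1 was at least 28.4-fold lower. Of the 4 specific granule genes that passed, 3 were lower, Lcn2 at 32.8 CPM (0.0486, 0.0190–0.104) and Ifitm6 at 51.6 CPM (0.132, 0.0620–0.254) among them, while Mmp9, gelatinase B, was at 1416 against 915 CPM (1.55, 1.25–1.92). Of the 5 receptors, 4 were lower, the member Hcar2 among them, the formyl peptide receptor gene Fpr1 from 32 UMIs to 1 (0.0202, 0.000496–0.121), and Ffar2, a receptor for short-chain fatty acids, was 12.9-fold higher (3.35–110.3) from 40 and 2 UMIs. Of 6 ageing and homing genes 3 were lower, Cxcr2 at 216 against 719 CPM and Selplg at 178 against 879 CPM among them, and Cxcr4 was at 591 against 443 CPM (1.33, 0.975–1.84). Of the 16 NF-kB or lipopolysaccharide genes 3 were higher and 2 lower, with Il1b at 12613 against 16694 CPM and Cxcl2 at 14235 against 11792 CPM. Of the genes listed for Siglecf-positive neutrophils, 5 of 8 were higher and 0 lower, and that list overlaps the genes that name the cluster.

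The Acod1 cluster, 45 cells at 24 h and 14 at 72 h, showed how Acod1 and Retnlg combined. At 24 h, 40 of its 45 cells (88.9%) held Acod1, at 5689 CPM [5138–6283] against 647 CPM in the 357 cells of the Retnlg cluster, a ratio of 8.79 (7.42–10.4). Retnlg was not lower there, at 4855 CPM against 2537 CPM (ratio 1.91). Hcar2 was at 2223 CPM against 656 CPM (3.39, 2.74–4.19), or 1638 CPM without its highest cell, and Gm5483 at 1843 CPM against 553 CPM (3.33, 2.63–4.20), of which 1 cell supplied so much that the level without it was 864 CPM. Stfa2l1 (1.68) and G0s2 (1.51) differed by less, Pglyrp1 was level at 936 and 931 CPM, and Hdc was lower, at 951 against 1343 CPM (0.708, 0.537–0.920). In this comparison 3 of 8 members were at least 2-fold higher and 0 lower, where 12.3% of 1480 genes were higher and 29.6% lower. Acod1 and Hcar2 were among the 10 leading genes of the cluster, so their part of this count is no support. Acod1, although kept out of the genes used for clustering, was the gene that led the cluster, and the median depth was 1494 UMIs against 860.

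Genes of the inflammatory list were among the 182 of 1480 genes (12.3%) that were at least 2-fold higher in that cluster, where 29.6% were lower. Of 17 NF-kB or lipopolysaccharide genes that passed, 12 were at least 2-fold higher and 1, Ptgs2, was lower, with a median log2 ratio of 1.72 against -0.48 over all 1480 genes. Cxcl2 was at 46827 CPM against 12528 CPM (3.74, 3.57–3.92) and Ccl3 at 8745 against 2628 CPM (3.33, 2.99–3.70), while Il1b was at 10471 against 11524 CPM (0.909, 0.838–0.984). Of 7 itaconate and NRF2 genes that passed beside Acod1 itself, 3 were higher and 0 lower. Hmox1 was at 643 against 187 CPM (3.43, 2.28–5.13) and Slc7a11 at 1945 against 974 CPM (2.0, 1.62–2.45). Of 6 ageing and homing genes 4 were lower, among them Cxcr2 at 73.1 against 614 CPM (0.119, 0.0383–0.283), Cxcr4 at 205 against 489.9 CPM (0.418, 0.223–0.722) and Selplg at 351 against 825 CPM (0.425, 0.268–0.646).

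Seen cell by cell, the members were found together or apart in patterns that depth alone partly sets, since a deeper cell shows more of every gene. Each pair is therefore given as the level of one gene in cells with and without a UMI of the other, and as shares after thinning all cells to 500 UMIs. The clearest pair was that of the stefins. At 24 h the 63 cells with Stfa2l1 held Gm5483 at 2498 CPM, the others at 392 CPM, a ratio of 6.37 (5.06–8.06), with both genes in 26 cells. Thinned, 35.4% of cells with Stfa2l1 had Gm5483, against 7.63% of the others. One cell with 69 Gm5483 UMIs weighed on this, and without it the ratio was 4.08. At 72 h the ratio was 2.57 (2.06–3.23), with thinned shares of 61.1% and 24.3% and both genes in 34 cells.

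Retnlg went with Gm5483 and with Pglyrp1 at both times, and with Stfa2l1 at 24 h. In cells with Gm5483 the Retnlg level was 4.25 times (3.79–4.78) that of the other cells at 24 h, with thinned shares of 40.9% and 22.1%, and 2.22 times (1.85–2.68) at 72 h. Pglyrp1 was 2.33 times (1.89–2.87) higher in cells with Retnlg at 24 h, thinned 52.6% against 26.2%, and 1.76 times at 72 h. Retnlg by Stfa2l1 gave 3.55 (3.16–3.99) at 24 h but 0.803 (0.672–0.959) at 72 h, where the thinned shares, 50% and 27.1%, went the other way. Stfa2l1 by Retnlg at 72 h was also below 1, at 0.714 (0.558–0.913), with thinned shares of 48.6% and 26.1%. A single cell held 95 Retnlg UMIs at 72 h, which does not weigh on the Stfa2l1 level in this second split. Levels and thinned shares went opposite ways in both directions, so no order is read for this pair at 72 h.

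Acod1 and Hcar2 were also compared cell by cell. At 24 h Hcar2 was 2.08 times (1.69–2.58) higher in cells with Acod1 and Acod1 2.71 times (2.29–3.23) higher in cells with Hcar2. After thinning, 29.3% of cells with Acod1 had Hcar2 against 22.4% without, and 29.9% of cells with Hcar2 had Acod1 against 23.0%. Cells with Acod1 were deeper, with a median of 1059 UMIs against 831. At 72 h Hcar2 by Acod1 was 1.18 (0.756–1.82), thinned 20% against 22.0%, and Acod1 by Hcar2 3.31 (2.02–5.61), thinned 13.0% against 14.5%, so the thinned shares did not follow the level and no order is read there. Acod1 by G0s2 gave 4.01 (3.28–4.95), thinned 34.2% against 18.4%, at 24 h and 0.830 at 72 h. Both genes were also found in cells with Retnlg. Acod1 by Retnlg was 1.79 (1.52–2.11), thinned 27.8% against 23.6%, and Hcar2 by Retnlg 1.13 (0.905–1.40), thinned 23.7% against 24.3%. At 72 h Acod1 by Retnlg was 0.722 (0.456–1.13), thinned 13.5% against 14.5%, and Hcar2 by Retnlg 0.840 (0.545–1.29), thinned 29.7% against 17.4%, so the difference in Acod1 at 24 h was not seen at 72 h.

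Hdc by Retnlg was 1.10 at 24 h, thinned 52.6% against 41.3%, and 1.47 (1.08–2.02) at 72 h, thinned 51.4% against 34.8%. By Acod1 it was 1.03 at 24 h and 0.993 at 72 h. In the other direction Retnlg was 5.54 times (3.96–7.96) higher in cells with Hdc at 72 h, thinned 44.2% against 28.6%, in the library where 1 cell held 95 of the 512 Retnlg UMIs.

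**Figure D4:**
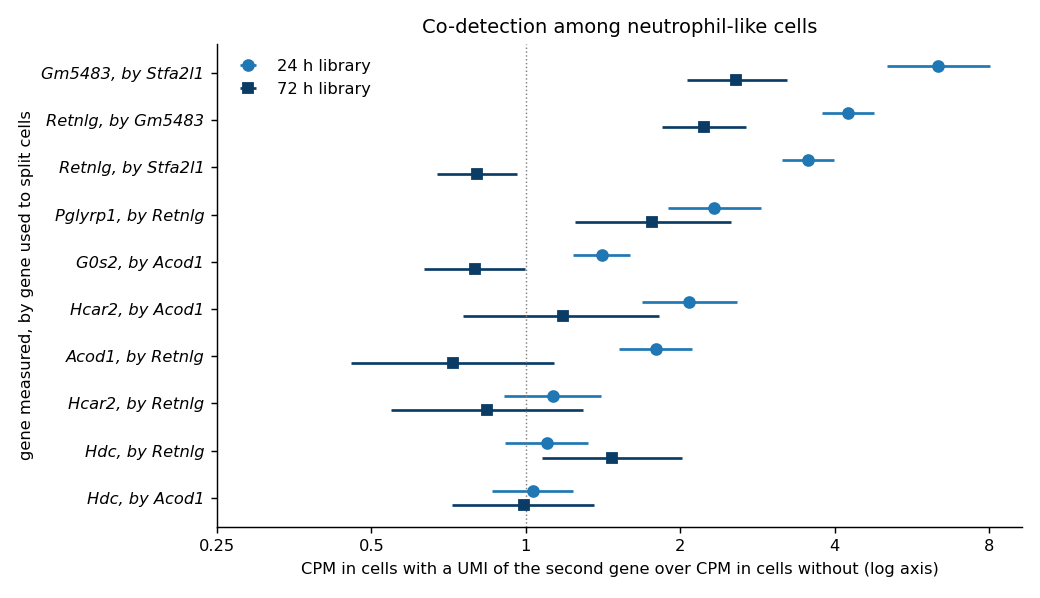
Ratio of a gene's CPM in cells with a UMI of a second gene to that in cells without one (x axis, logarithmic), for neutrophil-like cells at 24 h and 72 h, with exact 95% intervals. Gm5483 by Stfa2l1 lies farthest to the right at 24 h, at 6.37, and Hdc by Retnlg lies at 1.10 at 24 h and 1.47 at 72 h.

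Members were also counted per cell. At 24 h, 28 of 402 neutrophil-like cells held none of the 8 genes, the median was 3 and 63 cells held at least 5. Of these cells 70 held Retnlg or a stefin without Acod1 or Hcar2, 118 held Acod1 or Hcar2 without Retnlg or a stefin, 98 (24.4%) held both kinds and 116 neither. At 72 h, 2 of 106 cells held none of the 8, the median was 4, and 47 cells (44.3%) held both kinds, with 30 and 12 holding only the first or the second. In the Siglecf-Ptgs2 cluster at 72 h, 5 of 206 cells (2.43%) held both kinds, 38 held Acod1 or Hcar2 alone and 150 neither, with a median of 1 member per cell. These counts are not corrected for depth. No number for genes found independently of each other was set beside them, so no association is read from them.

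Across the 402 neutrophil-like cells at 24 h, the genes most like each member were found by Pearson's r of log-normalized values over 1103 genes seen in at least 10% of the cells. Retnlg was nearest to Wfdc21 (0.44), Lcn2 (0.42) and S100a9 (0.39), and Pglyrp1 to Ifitm1 (0.43), Wfdc17 (0.36) and Slpi (0.33). Acod1 was nearest to Ehd1 (0.36), Smox (0.27) and the cystine transporter gene Slc7a11 (0.27), and Hcar2 was near to Ccl3 (0.27) and Cxcl2 (0.22). Stfa2l1 and Gm5483 were each other's nearest, at 0.34, followed by Wfdc17 (0.22) and Retnlg (0.22) for Stfa2l1 and by Retnlg (0.24) and Wfdc21 (0.22) for Gm5483. G0s2 reached 0.29 with Ifitm1, 0.21 with Clec4e and 0.20 with Acod1, and Hdc no more than 0.19, with Ifitm2 and Lcp1, then 0.18 with Cdk2ap2. All cells came from 1 library and share its depth range, and the values are low. At 72 h, over 106 cells, Wfdc21 was again nearest to Retnlg (0.46) and the stefins nearest to each other (0.48).

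Over the 16 groups of class and library the same question gave a likeness of where the genes are expressed, on the log2(CPM + 10) scale and among 5500 genes. Retnlg followed Asprv1 (r = 0.99), Fpr1 (0.98) and Mrgpra2b (0.98), Hdc followed Il1rap (0.98), G0s2 (0.98) and Cxcr2 (0.98), and G0s2 followed Hdc, H2-Q10 and Gm17619 (0.98, 0.98 and 0.97). Acod1 followed Arg2 (0.99), Gm20406 (0.98) and Cxcl3 (0.98), and Hcar2 followed Gm20406 (0.98), Slc7a11 (0.98) and Acod1 (0.97). Stfa2l1 followed Slc40a1 (0.98), Gm5483 (0.98) and Rpl3l (0.97), Gm5483 followed Stfa2l1 (0.98), AC110211.1 (0.97) and Slc40a1 (0.97), and Pglyrp1 followed Midn (0.97), Upp1 (0.95) and Eif1 (0.95). Groups of one library share its depth.

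Re-clustering the 777 granulocytes alone, again without the members, gave 6 sub-clusters that differed in the members. A sub-cluster of 236 cells with Ltc4s among its leading genes, of which 223 came from the Siglecf-Ptgs2 cluster, had Retnlg at 32.1 CPM, Hdc at 1127 CPM and G0s2 at 1938 CPM. The 202 cells with Ccl9 among their leading genes, 168 of them from 24 h, had Retnlg at 629 CPM, with Hdc at 1629.6 CPM. Retnlg was far higher in the 126 cells led by interferon-induced genes such as Ifit3b (4961 CPM; 120 of the cells from 24 h) and in the 79 cells with Gm9733 (6310.5 CPM; 54 of the cells from 72 h). That last sub-cluster also had the highest stefin levels, Stfa2l1 at 1451 CPM and Gm5483 at 3399 CPM, and the lowest Acod1 but one, 278 CPM. The 66 cells led by Acod1, 58 of them from the Acod1 cluster, had Acod1 at 4822 CPM [4395–5279.8] and Hcar2 at 1803 CPM beside Retnlg at 3606 CPM.

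**Figure D5:**
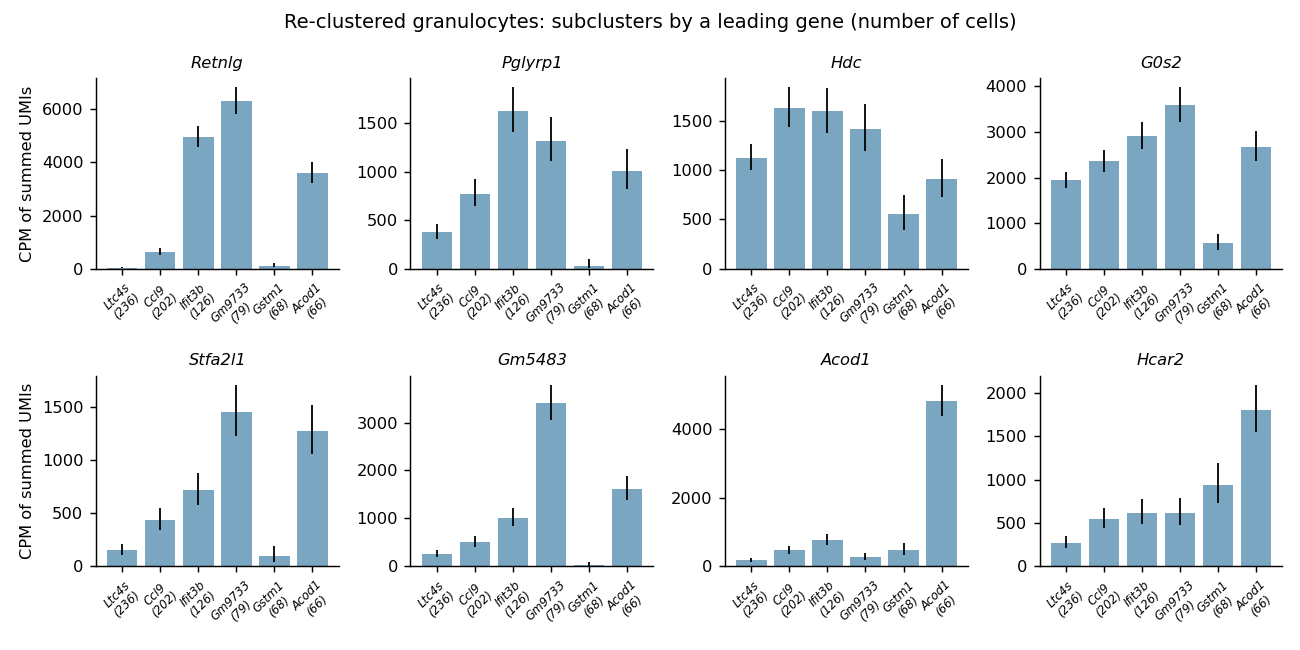
CPM of summed UMIs (bars from 0, with exact Poisson 95% intervals) of the 8 genes in the 6 sub-clusters of the 777 granulocytes, each named by 1 of its leading genes with its number of cells. Retnlg is highest in the Gm9733 and Ifit3b sub-clusters (6310.5 and 4961 CPM) and low in the Ltc4s and Gstm1 ones (32.1 and 108 CPM), and Acod1 is highest in the sub-cluster that it leads (4822 CPM).

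One sub-cluster had 7 of the 8 members at lower levels than the other neutrophil-like cells of its library. Its 68 cells, all from 24 h, were led by Gstm1 and had Cd63, a lysosomal and azurophil granule membrane protein, at 6168 CPM, Cstb at 11485 CPM and the lysosomal gene Psap at 7949 CPM. Retnlg was at 108 CPM there, 33.0-fold lower (16.7–76.7) than in the other neutrophil-like cells of the library, and Pglyrp1 and Gm5483, with 2 UMIs each, were 42.0-fold (11.5–348) and 34.9-fold (9.57–289) lower. G0s2 was 5.03-fold, Stfa2l1 4.80-fold, Acod1 3.58-fold and Hdc 2.59-fold lower. Acod1 was nonetheless at 486 CPM, above the Ltc4s (173 CPM) and Gm9733 sub-clusters. Hcar2 alone was level, at 945 CPM (ratio 1.03, 0.780–1.34), with a UMI in 45.6% of the cells. Thus 7 of 8 members were at least 2-fold lower and 0 higher, where 15% of 1623 genes were lower and 20.3% higher. All 11 neutrophil markers had UMIs in these cells, with S100a8 at 8664 CPM, Csf3r at 648 CPM and Cxcr2 at 40.5 CPM, and so had 11 of 13 monocyte/macrophage markers, which summed to 3495 CPM (Cx3cr1 and Ms4a7 at 0) against 4159 CPM in all neutrophil-like cells at 24 h. Without the sub-cluster the Retnlg level at 24 h was 3565 CPM and the Retnlg ratio of 72 h to 24 h 1.04, against 1.27 with it.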

How the data were processed

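CD45+ cells from the muscularis of the small intestine were measured in 3 droplet-based single-cell RNA libraries (10x Genomics 3' kit), naive, 24 h and 72 h after intestinal manipulation, as the labels name them. The deposited values are UMI counts per gene and cell, which the authors made with Cell Ranger 3.0.2 on the mouse build GRCm38 (mm10) and from which they dropped cells below 200 genes or above 10% mitochondrial UMIs. Libraries of other genotypes were not used here.

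From the counts, cells were log-normalized and clustered with Seurat 5.3.0 in R 4.3.3 (2000 variable genes without 98 genes, the members and their companion lists, 30 principal components, or 20 for the granulocytes, 20 neighbours, resolution 0.8, seed 0, no correction between libraries). A cluster was named where at least 3 listed markers were in at least 10% of its cells and at least 2-fold above other cells, and T and NK or ILC clusters were joined as T cells. The rule that kept the Siglecf-Ptgs2 cluster apart was written after the clusters were seen. Scrublet (scanpy 1.11.5) marked 16 of 4102 cells as doublets, 0 of them granulocytes, and none was removed. That is under 0.5% of the cells, and doublets were not otherwise treated. Cell barcodes were shared between libraries in 3 cases, 1 of them in a granulocyte.

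UMIs were summed per class and library and given as CPM with exact Poisson intervals, ratios with exact conditional intervals and shares with Clopper-Pearson intervals, all at 95%. A count of 0 allows up to 3 counts. With 1 library per time point no test was run and no p-value is given. Intervals cover counting error only, and neither the spread between mice nor the uneven spread of UMIs over cells. The depth was a median of 2134.5, 4669 and 3295 UMIs per cell in the naive, 24 h and 72 h libraries. Calls were at least 2-fold on the CPM + 10 scale among genes with at least 100 CPM in one group and 10 UMIs in all. The scripts were tested on simulated data. Group counts were drawn there as Poisson counts, so that test does not cover the uneven spread of UMIs over cells.

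The 8 members and the companion lists were chosen with earlier results of these data known. The named genes were the members, from each list the 2 to 4 genes with the highest CPM in neutrophil-like cells at 24 h, the 3 genes most correlated with each member across those cells (among genes in at least 10% of them) and across the groups of class and library (among genes with at least 50 CPM in one group), and leading genes of clusters, the 10 with the highest fold among genes in at least 25% of the cells. Some genes that this rule names are not reported here. Motifs were searched in RefSeq promoters. The alternatives tried were stricter cell filters, doublet removal, means over cells, thinning to 500 or 1000 UMIs, other clustering settings, a gate on S100a8 and S100a9, a higher detection threshold and, added after seeing the data, leaving out single cells or clusters and comparing times within single sub-clusters.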

Additional observations from a re-analysis of the deposited data

Results flagged for a closer look

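The naive library held 11 neutrophil-like cells, too few for the comparisons above, and all 8 members were nonetheless above the 276 CPM that a count of 0 allows there. Retnlg stood at 2482 CPM (27 UMIs), Pglyrp1 at 2022 CPM (22 UMIs), Hdc at 1287 CPM (14 UMIs) and G0s2 at 1655 CPM (18 UMIs). Stfa2l1 stood at 1930.3 CPM (21 UMIs), Gm5483 at 3769 CPM (41 UMIs), Acod1 at 1379 CPM (15 UMIs) and Hcar2 at 827 CPM (9 UMIs). Retnlg was found in 7 of the 11 cells, and 1 cell held 14 of its 27 UMIs, without which the level was 1369 CPM. These values rest on so few cells that no order against 24 h or 72 h is given.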

How the results depend on the processing

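Of 130 values of 13 results under the alternatives tried, 93 stayed within the interval of the reported value, 35 moved outside it and 2 turned direction. With cells under 500 genes or above 5% mitochondrial UMIs dropped, Retnlg at 24 h was 3733 CPM, Acod1 1937 CPM, the Acod1 ratio to monocyte/macrophage-like cells 61.7, the Gm5483 ratio of 72 h to 24 h 3.05, Acod1 in its sub-cluster 5322 CPM, and the Retnlg ratio of 72 h to 24 h turned to 0.979. With a mean over cells in place of a sum they were 2255 CPM, 1069 CPM, 33.9, 4.50 and 4239 CPM. With cells thinned to 500 UMIs Retnlg was 2338 CPM, Acod1 1065 CPM, the Acod1 ratio 39.1, Acod1 in its sub-cluster 4152 CPM and the share of cells with Retnlg 24.1%, and the ratio of 72 h to 24 h was 4.46 for Gm5483, 0.514 for Acod1 and 1.43 for Retnlg. With the S100a8 and S100a9 gate Acod1 was 1342 CPM and that ratio 2.53 for Stfa2l1, 1.73 for Gm5483 and 0.284 for Acod1, and it turned to 0.597 for Retnlg. With at least 2 UMIs for detection, the share with Retnlg was 19.4% and Gm5483 by Stfa2l1 8.14. Without the cell with most UMIs of the gene, Retnlg was 2752 CPM, Acod1 1378 CPM, Gm5483 by Stfa2l1 4.08 and the ratio of 72 h to 24 h 4.49 for Gm5483 and 1.12 for Retnlg. Without the Gstm1 sub-cluster, Retnlg was 3565 CPM, Acod1 1738 CPM, and that ratio 3.13 for Gm5483 and 1.04 for Retnlg. In the larger cluster alone the ratio was 6.02 and 1.70. The cause of these shifts was not tested.

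The Retnlg and Hdc ratios of the Siglecf-Ptgs2 cluster to neutrophil-like cells at 72 h, and Retnlg in the Gstm1 sub-cluster, stayed within their intervals under every alternative that gave a value. No paired analysis was possible because each time point had 1 library and no test was run, and leaving out a replicate was not possible for the same reason. Granulocytes held few UMIs, and 446 of 777 had fewer than 1000, which limits what a gene's absence from a cell shows.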

Other observations

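Other values of the members belong to no comparison above. In the 188 naive T cells, Retnlg, Hdc, Stfa2l1, Gm5483, Acod1 and Hcar2 had 0 UMIs, which allows up to 6.31 CPM, beside 21 UMIs of Pglyrp1 and 7 of G0s2. In the 140 naive monocyte/macrophage-like cells Acod1 was at 2.02 CPM from 1 UMI and Hcar2 at 10.1 CPM from 5, against 31.0 and 13.9 CPM at 24 h and 11.9 and 10.6 CPM at 72 h, while Retnlg had 0 UMIs in the naive cells (up to 6.07 CPM) and stood at 22.1 and 20.6 CPM in the others. The largest cluster of this class differed between libraries, being one led by Lilra5 (71 cells) in the naive library, one led by Arg1 (560 cells) at 24 h and one led by Igf1 (275 cells) at 72 h, so the values are not read as a change over time. In DCs Retnlg was at 9.91 CPM at 24 h and 11.8 CPM at 72 h. G0s2 lies inside Lamb3 on the opposite strand, and Lamb3 stood at 32.6 CPM in neutrophil-like cells at 24 h.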
